A study of Homo sapiens with 8 samples.

Results

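The proteasome subunit and assembly genes were taken from the count table by symbol alone: every gene whose symbol is PSMA, PSMB, PSMC, PSMD, PSME, PSMF or PSMG followed by a number, together with POMP. This gave 49 genes of the 25168 in the table. Of these, 47 passed the filter on low counts and were tested among 12843 genes. The other 2 were PSMB11, the beta subunit of the thymus-specific proteasome, with 0 counts in all 8 libraries, and PSMA8, a germ-line alpha subunit, with at most 2 counts in any library.

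The proteasome degrades proteins tagged with ubiquitin. Its 20S core is a barrel of alpha rings, which gate entry, and beta rings, which carry the catalytic sites; the 19S cap binds, unfolds and feeds in the substrate with a ring of ATPases and a set of non-ATPase subunits. Interferons induce alternative catalytic subunits (the immunoproteasome), which favour peptides for MHC class I, and dedicated chaperones build the core and the cap. Transcription of subunit genes is known to be raised together by NFE2L1 (also called NRF1) when proteasome activity falls short.

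The cells were KG1a, an acute myeloid leukemia line. They received 5 µM TAK-981 plus 1 µM venetoclax (the combination), 5 µM TAK-981 alone, 1 µM venetoclax alone, or DMSO as vehicle, each for 48 h. TAK-981 inhibits the SUMO-activating enzyme and venetoclax inhibits BCL2. Each of the 4 groups had 2 RNA-seq libraries. Separate cultures are not stated in the labels. A p-value here sets a difference between group means against the scatter of these particular libraries, and that scatter may be purely technical. All results come from 1 cell line.

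Library totals ran from 13204588 to 26304900 counted reads. CD34 was at 953 to 1519 CPM (read counts scaled to a fixed library total) and PTPRC, SPN and CD7 were also counted in every library. Of 15 markers of other cell types, 8 to 11 were at 0 in each library, the erythroid, epithelial and most stromal ones among them. The 15 summed to 25.0 and 29.3 CPM with the combination, 46.3 and 48.3 with TAK-981, 43.0 and 31.2 with venetoclax and 37.9 and 50.2 with vehicle, most of it CD3D and CD3E. RNAs without poly(A) tails differed more: the 5 examined summed to 154 and 289 CPM with the combination, 33.7 and 31.9 with TAK-981, 19.9 and 34.0 with venetoclax and 13.3 and 13.4 with vehicle. All 5 of them were called higher in combination libraries than in each other group, and their part in the results below was not tested.

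The 49 genes took 0.5346% and 0.5319% of all counted reads in combination libraries, 0.4316% and 0.4149% in TAK-981 libraries, 0.4988% and 0.5741% in venetoclax libraries, and 0.4012% and 0.4089% in vehicle libraries. Both groups that received venetoclax stood above both groups that did not. These are shares of a library, so less RNA per cell and fewer cells of a kind cannot be told apart here.

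Levels per length differed widely among the genes. In vehicle cells, mean TPM (counts per gene length, scaled to a fixed total) was highest for PSMA7, an alpha-ring subunit, at 303 TPM, and PSME1, an activator subunit, at 291 TPM. The 20S beta subunits PSMB1 to PSMB7 lay between 54.5 and 250.3 TPM, the 19S ATPases PSMC1 to PSMC6 between 69.3 and 183 TPM and the 19S non-ATPase subunits between 44.0 and 178 TPM. At the low end were the inducible catalytic subunit PSMB10 at 4.60 TPM, the 19S chaperone PSMD9 at 4.91 TPM, and the alpha subunits PSMA2 at 7.22 TPM and PSMA6 at 7.65 TPM. In GENCODE 29 these 4 genes share 58.3%, 58.7%, 97.1% and 70.4% of their coding bases with another coding gene on the same strand, and so does PSMA1, with 88.6%, at 200 TPM. No source used here says how reads that match more than 1 gene were counted, and the part of such reads in these levels was not tested.

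Replicates were close in 3 of the groups. The median difference between the 2 libraries of a group over the 47 genes was 0.07 on the log2 scale with the combination, 0.09 with TAK-981, 0.18 with venetoclax and 0.09 with vehicle, against 0.11, 0.10, 0.25 and 0.11 over all genes tested. In venetoclax cells 7 members differed by over 0.5 between the 2 libraries, the widest being PSMD9 at 0.89. The first venetoclax library also had the lowest library scaling factor, 0.895.

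**Figure D1:**
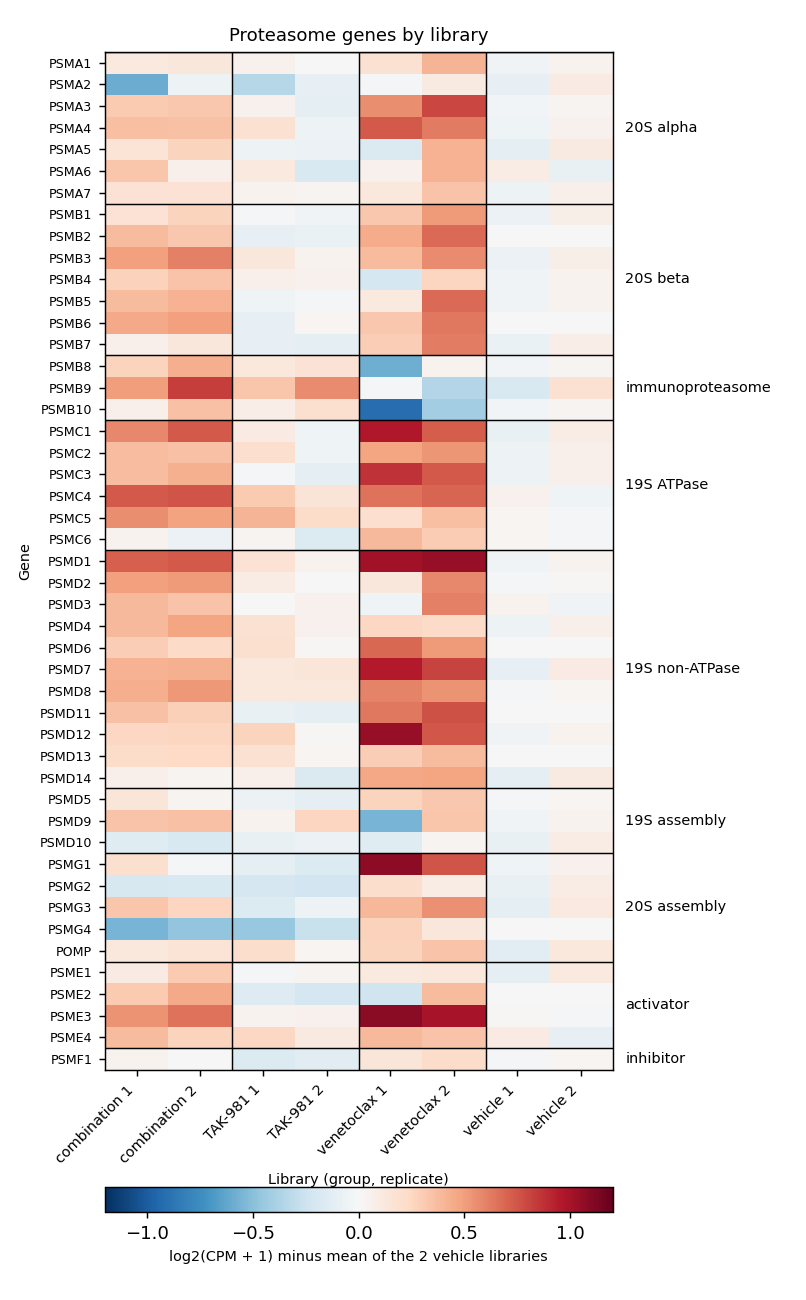
Heat map of the 47 tested genes (rows, grouped by class) in the 8 libraries (columns), as log2(CPM + 1) less the mean of the 2 vehicle libraries. Red marks levels above vehicle and blue levels below it. The 19S and 20S rows are mostly red in the 2 combination and 2 venetoclax columns and pale in the TAK-981 columns, while PSMB8 and PSMB10 are blue in the first venetoclax column and PSMG4 is blue in the combination columns.

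Venetoclax alone raised the genes of the 19S cap and many of the core. Relative to vehicle cells, 25 of 47 members (53.2%) rose and 0 fell (edgeR quasi-likelihood test, Benjamini-Hochberg adjusted p under 0.05); over all 12843 genes, 20.8% were called, 11.4% higher and 9.44% lower. The 25 were 13 of 17 subunits of the 19S cap, 7 of 14 constitutive core subunits, 3 of 8 assembly chaperones, 2 of 4 activators and 0 of 3 immunoproteasome subunits. The median log2 fold change of the 47 was 0.36, against 0 for all genes. The count depended on the libraries kept: it was 6 without vehicle replicate 1, 12 without vehicle replicate 2, and 36 without venetoclax replicate 1. The genes called in all 8 fits that left out 1 library were PSMC3, PSMC4, PSMD1, PSMD7, PSMD11 and PSME3.

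TAK-981 alone gave no call among these genes. None of the 47 passed the edgeR test against vehicle, where 12.2% of all genes were called, 5.98% higher and 6.18% lower. The median log2 fold change was 0.02, against 0.00 for all genes, with values between -0.38 and 0.46. At an unadjusted p under 0.05 there were 4 members (8.51%, against 26.6% of all genes); DESeq2 called 0, and limma-voom with quality weights called 4. Those 4 were PSMB9, PSMC4 and PSMC5, with log2 fold changes of 0.46, 0.24 and 0.32, and PSMG4, with -0.38. The same 4 were called by edgeR when either venetoclax library was left out.

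The combination raised 18 of 47 members relative to vehicle (38.3%) and lowered 1, PSMG4 (2.13%), by the same edgeR test; 27.9% of all genes were called, 12.8% higher and 15.1% lower. The 18 were 11 of 17 cap subunits, 4 of 14 core subunits, 2 of 4 activators and 1 of 3 immunoproteasome subunits. The median log2 fold change was 0.32, against 0.01 for all genes. Without combination replicate 2 the count was 4, without vehicle replicate 1 it was 5, and it was 8 without combination replicate 1 or vehicle replicate 2. It was 31 when either venetoclax library was left out. PSMC4, PSMD1 and PSME3 were called in all 8 such fits.

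Relative to TAK-981 alone, the combination raised 9 of 47 members (19.1%) and lowered 0 in the edgeR test, where 8.8% of all genes were called, 2.76% higher and 6.03% lower. The median log2 fold change was 0.26, against 0.02 for all genes. The 9 were PSMC1, PSMC3 and PSMC4 of the ATPase ring, PSMD1, PSMD8 and PSMD11 of the rest of the cap, PSMB2 and PSMB3 of the core, and the activator PSME3. None was called when any 1 of the combination or TAK-981 libraries was left out; 4 were called with either vehicle library left out and 23 with either venetoclax library left out.

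Relative to venetoclax alone, the combination lowered 15 of 47 members (31.9%) and raised 3 (6.38%) in the edgeR test; 39.6% of all genes were called, 22% lower and 17.6% higher. The 15 were 8 of 17 cap subunits, 3 of 14 core subunits, 3 of 5 chaperones of the core and the activator PSME3, and the 3 that rose were the immunoproteasome subunits. The median log2 fold change was -0.16, against -0.02 for all genes. The count was 4 without combination replicate 2, when no immunoproteasome subunit was called, 7 without combination replicate 1, and 26 without venetoclax replicate 2, when 11 were higher. PSMD12, PSMG1 and PSMG4 were called in all 8 fits. The comparisons with vehicle share the vehicle libraries, and both last comparisons share the combination libraries, so their counts are given side by side and not as independent evidence.

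The test of whether the effect of TAK-981 differed with and without venetoclax called 0 of 47 members in edgeR; over all genes 0.0311% were called. At an unadjusted p under 0.05 there were 10 members (21.3%, against 18.9% of all genes). DESeq2 called 1, PSMD12, and limma-voom 0. PSMD12 had the smallest p, with a difference of -0.80 ± 0.18 (SE) on the log2 scale. Without venetoclax replicate 2, 17 members were called, 8 of them higher and 9 lower; without venetoclax replicate 1, 6 were called, all lower.

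Genes were also counted, with no test, where both libraries of one group lay above or below both of another. With the combination against vehicle, 36 of the 47 lay above and 3 below, against 36.8% and 35.8% of all genes. With TAK-981 against vehicle, 13 lay above and 9 below, against 32.4% and 32.9%, and with venetoclax against vehicle 35 lay above and 1 below, against 29.7% and 28.5%. The combination lay above TAK-981 for 37 and below for 2, against 33.8% and 31.6%. It lay above venetoclax for 8 and below for 27, against 32.9% and 35.8% of all genes.

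**Figure D2:**
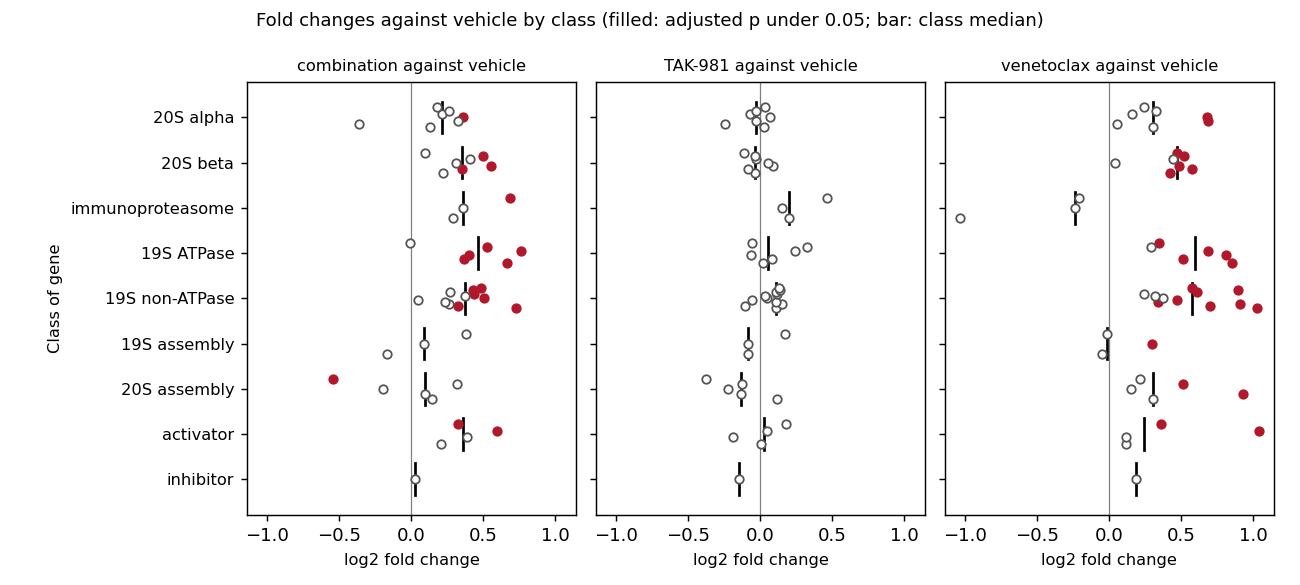
Log2 fold change against vehicle (horizontal axis) of each tested gene by class (vertical axis), for the combination, TAK-981 and venetoclax; filled points have an adjusted p under 0.05 and bars are class medians. Filled points sit right of 0 in the cap and core rows with the combination and venetoclax, PSMG4 is the filled point left of 0, and no point is filled with TAK-981.

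In the 19S cap, most subunits rose with venetoclax and with the combination. PSMD1 (chr2:231056864-231172827, plus strand, hg38), the large scaffold subunit that docks substrates beside the ATPase ring, had 246 and 248 CPM in combination libraries, 168 and 153 CPM in TAK-981 libraries, 299.8 and 308 CPM in venetoclax libraries and 145 and 153 CPM in vehicle libraries. The venetoclax libraries were the highest, the combination libraries came next without overlap, and the lower TAK-981 library was level with the higher vehicle one. Its log2 fold change against vehicle was 1.03 ± 0.09 (SE; adjusted p = 0.00125) with venetoclax and 0.73 ± 0.09 (adjusted p = 0.000831) with the combination. The combination stood 0.62 ± 0.09 above TAK-981 alone (adjusted p = 0.00634; not called when any 1 of those 4 libraries was left out). Relative to venetoclax alone it fell by 0.30 on the log2 scale (adjusted p = 0.0314), a call that was lost when any 1 library other than a venetoclax one was left out.

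The ATPase ring unfolds the substrate. PSMC3 (chr11:47418769-47426473) had 113 and 117 CPM with the combination, 85.7 and 81.1 with TAK-981, 161 and 146 with venetoclax and 83.4 and 91.3 with vehicle. PSMC4 (chr19:39971005-39981441) had 75.5 and 76.8 CPM with the combination, 56.3 and 50.1 with TAK-981, 71.1 and 73.7 with venetoclax and 46.6 and 43.4 with vehicle. Both genes had their combination and venetoclax libraries above every TAK-981 and vehicle library, but for PSMC3 venetoclax was above the combination, and for PSMC4 the combination was above venetoclax. PSMC3 rose by 0.81 ± 0.10 with venetoclax (adjusted p = 0.00227) and PSMC4 by 0.69 ± 0.10 (adjusted p = 0.00412). With the combination, PSMC4 rose by 0.76 ± 0.10 (adjusted p = 0.000986) and PSMC3 by 0.40 ± 0.10 (adjusted p = 0.0156), all on the log2 scale against vehicle; the last was not called when any 1 of the combination or vehicle libraries was left out. PSMC1 had 183 and 206 CPM with the combination, 131 and 118 with TAK-981, 240.2 and 203 with venetoclax and 115 and 131 with vehicle, so the groups without venetoclax lay below those with it. In GENCODE, PSMC1 shares 75.8% of its exonic bases with NRDE2 on the opposite strand, and 13 pseudogenes are named after it. No source used here says whether counting used strand, and the part of NRDE2 or pseudogene reads in the PSMC1 counts was not tested. Of the 6 ATPase genes, 5 rose with venetoclax and 5 with the combination; PSMC5 was not called with venetoclax (0.29) and PSMC6 not with the combination (-0.01).

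Of the 11 non-ATPase subunits, 8 rose with venetoclax and 6 with the combination. PSMD7 (chr16:74296775-74306288), which pairs with the deubiquitinase PSMD14, had 113 CPM in both combination libraries, 91.8 and 93.1 with TAK-981, 164 and 148 with venetoclax and 78.5 and 89.7 with vehicle. The 4 groups did not overlap, in the order venetoclax, combination, TAK-981, vehicle. PSMD7 rose by 0.89 ± 0.10 with venetoclax (adjusted p = 0.00181), rose by 0.42 ± 0.10 with the combination (adjusted p = 0.0136), and was 0.47 lower with the combination than with venetoclax (log2 fold change -0.47 ± 0.10, adjusted p = 0.0068), the last not called without combination replicate 2, and the rise with the combination not called without either combination library or without vehicle replicate 1. PSMD12 (chr17:67337916-67366627), a lid subunit, had 97.3 and 97.9 CPM with the combination, 98.6 and 82.6 with TAK-981, 169.8 and 137 with venetoclax and 79.1 and 84.1 with vehicle. Venetoclax libraries alone stood apart, by 0.91 ± 0.13 against vehicle (adjusted p = 0.00348; not called without vehicle replicate 1), and the combination was at -0.65 ± 0.13 against venetoclax (adjusted p = 0.00454). PSMD8, another lid subunit, had 125 and 132 CPM with the combination, 101 CPM in both TAK-981 libraries, 139 and 134 with venetoclax and 90.2 and 93.8 with vehicle. It rose by 0.57 ± 0.09 with venetoclax and by 0.48 ± 0.09 with the combination (adjusted p = 0.00453 and 0.00417; not called without vehicle replicate 1 and without combination replicate 2). Between the combination and venetoclax its log2 fold change was -0.09 (adjusted p = 0.44). The ubiquitin receptor PSMD4 and the scaffold PSMD2 rose with the combination, by 0.44 and 0.51, and were not called with venetoclax, at 0.24 and 0.38.

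The cap genes were also summarised in single libraries, as the median difference from the vehicle mean. For the ATPases it was 0.46 in both combination libraries, 0.15 and -0.05 with TAK-981 and 0.56 and 0.62 with venetoclax. For the non-ATPases it was 0.39 and 0.35 with the combination, 0.13 and 0.02 with TAK-981 and 0.59 and 0.58 with venetoclax. All values are log2 differences; those of the 2 libraries of a group were close but for the ATPases with TAK-981, where the sign differed.

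The constitutive 20S core rose less. With venetoclax, 2 of 7 alpha subunits passed the test, PSMA3 at 0.69 and PSMA4 at 0.68, and 5 of 7 beta subunits, between 0.42 (PSMB1) and 0.57 (PSMB2); PSMB6, at 0.52, was called in 1 of the 8 fits that left out 1 library, that without venetoclax replicate 1. Without venetoclax replicate 2, PSMB6 was at 0.34, and PSMB7, at 0.47 with all libraries, was at 0.29. With the combination, 1 alpha subunit (PSMA4, 0.36) and 3 beta subunits (PSMB2 at 0.35, PSMB3 at 0.55, PSMB6 at 0.50) rose. Of these, PSMA4, PSMB2 and PSMB6 were not called when any 1 library other than a venetoclax one was left out. PSMB3 was not called without combination replicate 2 or without vehicle replicate 1. The alpha subunits form the gate, and among the beta subunits only PSMB5, PSMB6 and PSMB7 cut peptide bonds. The 2 venetoclax libraries were further apart for the core than for the cap: the median beta subunit stood 0.32 above the vehicle mean in one and 0.61 in the other, and the median alpha subunit 0.13 and 0.42. In the combination libraries the beta medians were 0.38 and 0.35 and the alpha medians 0.18 in both. No core gene was called with venetoclax when vehicle replicate 1 was left out, and 12 of 14 when venetoclax replicate 1 was left out.

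Assembly chaperones split into genes that rose and genes that did not. PSMG1 (chr21:39174769-39183851, minus strand), part of the dimer that starts the alpha ring, had 75.3 and 65.2 CPM with the combination, 61.2 and 58.8 with TAK-981, 139 and 112 with venetoclax and 63.6 and 68.2 with vehicle. Only the venetoclax libraries stood above the rest; the combination libraries lay on both sides of the higher vehicle library. It rose by 0.93 ± 0.13 with venetoclax (adjusted p = 0.00329; not called without vehicle replicate 1), was at 0.09 with the combination (adjusted p = 0.63), and fell by 0.83 ± 0.13 with the combination relative to venetoclax (adjusted p = 0.00155). PSMG4 (chr6:3231807-3303373), which acts with PSMG3 in the same step, had 14.8 and 15.8 CPM with the combination, 16.0 and 18.4 with TAK-981, 27.3 and 24.5 with venetoclax and 22.4 and 22.3 with vehicle. Both groups given TAK-981 lay below both groups without it. The change against vehicle was -0.55 ± 0.14 with the combination (adjusted p = 0.016; not called without any 1 of the combination or vehicle libraries), -0.38 ± 0.13 with TAK-981 (adjusted p = 0.103) and 0.21 with venetoclax (adjusted p = 0.277). Against venetoclax, the combination was at -0.76 ± 0.14 (adjusted p = 0.00297). POMP, which joins the beta rings and is required for the immunoproteasome, had 76.0 and 77.7 CPM with the combination, 80.5 and 70.7 with TAK-981, 83.9 and 88.3 with venetoclax and 63.6 and 75.7 with vehicle, and passed the test in no comparison. PSMG3 rose by 0.51 with venetoclax, a call lost when any 1 library other than venetoclax replicate 1 was left out. PSMG2 was at -0.35 with the combination against venetoclax, and was not called when any 1 combination or TAK-981 library was left out. The 3 chaperones of the cap, PSMD5, PSMD9 and PSMD10, gave 1 call, PSMD5 with venetoclax at 0.30. It was lost with DESeq2, with limma-voom and when any 1 library other than a venetoclax one was left out.

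The activators are alternative caps that open the core without ATP. PSME3 (chr17:42824426-42843758, plus strand), the nuclear activator, had 219 and 236 CPM with the combination, 155 and 156 with TAK-981, 319 and 299 with venetoclax and 152 and 149 with vehicle. The order venetoclax, combination, TAK-981, vehicle held without overlap, though TAK-981 and vehicle were close, at a log2 fold change of 0.05 (adjusted p = 0.795). PSME3 rose by 1.04 ± 0.09 with venetoclax (adjusted p = 0.00115) and by 0.60 ± 0.09 with the combination (adjusted p = 0.00196), and the combination stood at -0.44 ± 0.09 against venetoclax (adjusted p = 0.00582; not called without combination replicate 1). PSME4, the large nuclear activator, had 258 and 239 CPM with the combination, 236 and 213 with TAK-981, 259 and 251 with venetoclax and 212 and 185 with vehicle. It passed the test against vehicle by a small margin with venetoclax (0.36 ± 0.11, adjusted p = 0.0427) and with the combination (0.33 ± 0.11, adjusted p = 0.0499), and both calls were lost when any 1 library other than a venetoclax one was left out. PSME1 and PSME2, the interferon-inducible activator subunits, were not called in any comparison by the edgeR test on all 8 libraries. PSME1 had 116 and 136 CPM with the combination, 107 and 112 with TAK-981, 118 and 119 with venetoclax and 100.2 and 118 with vehicle. PSME2 had 65.7 and 72.5 CPM with the combination, 47.1 and 45.5 with TAK-981, 44.6 and 68.9 with venetoclax and 52.9 and 52.5 with vehicle, with the venetoclax libraries on either side of the vehicle ones. Against TAK-981, PSME2 was called higher with the combination by DESeq2, by limma-voom, with no filter on low counts and with only the compared libraries. It was not called there with DESeq2 size factors, a mean of at least 1 CPM or the replicate block. PSMF1, an inhibitor of the core, had 96.1 and 94.0 CPM with the combination, 83.2 and 85.4 with TAK-981, 104 and 109 with venetoclax and 92.3 and 94.9 with vehicle, and was not called.

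The proximal promoters of the scaffold, chaperone and activator genes that stood highest with venetoclax are shown because these 3 genes, of 3 different classes, had log2 fold changes near 1 in the same comparison. Each is 250 bases before to 50 after the RefSeq start in GRCh38.p14, 5′ to 3′ on the gene's strand: PSME3 at chr17:42833147-42833446 (plus), PSMD1 at chr2:231056617-231056916 (plus) and PSMG1 at chr21:39183402-39183701 (minus). The PSMD1 window holds the 5′ end of that gene as deposited. The other windows do not, as the deposited 5′ ends are chr17:42824426 for PSME3 and chr21:39183851 for PSMG1. Capitals mark matches, on either strand, of the antioxidant response element core TGACNNNGC, which NFE2L1 is known to bind, the NF-Y box CCAAT, or the interferon response element core (GAAA, any 2 letters, GAAA).
PSME3: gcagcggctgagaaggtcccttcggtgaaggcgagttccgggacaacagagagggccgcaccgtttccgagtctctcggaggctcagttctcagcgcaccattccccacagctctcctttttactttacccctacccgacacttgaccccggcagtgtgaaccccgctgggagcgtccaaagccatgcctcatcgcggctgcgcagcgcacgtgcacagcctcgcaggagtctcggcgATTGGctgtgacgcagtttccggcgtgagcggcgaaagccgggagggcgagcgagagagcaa
PSMD1: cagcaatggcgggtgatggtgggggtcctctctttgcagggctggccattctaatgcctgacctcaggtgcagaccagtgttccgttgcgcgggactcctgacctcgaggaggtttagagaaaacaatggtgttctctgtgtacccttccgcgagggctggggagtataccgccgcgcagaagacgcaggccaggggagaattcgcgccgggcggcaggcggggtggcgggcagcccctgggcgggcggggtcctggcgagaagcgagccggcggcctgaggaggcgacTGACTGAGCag
PSMG1: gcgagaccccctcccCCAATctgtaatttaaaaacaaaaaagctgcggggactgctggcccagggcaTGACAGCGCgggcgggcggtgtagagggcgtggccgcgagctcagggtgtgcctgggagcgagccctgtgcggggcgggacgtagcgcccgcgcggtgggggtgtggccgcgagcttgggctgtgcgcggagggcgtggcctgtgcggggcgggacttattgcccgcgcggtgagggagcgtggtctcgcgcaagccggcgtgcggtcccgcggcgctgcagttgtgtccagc
PSMD1 holds TGACTGAGC just after its RefSeq start, and PSMG1 holds TGACAGCGC and CCAAT far upstream of its RefSeq start. PSME3 holds ATTGG, the reverse of the NF-Y box, and no antioxidant element core. RefSeq windows were at hand for 43 of the 49 members. The antioxidant element core was found in 15 of 43 (34.9%), against 16.1% of 27305 genes, and in 8 of the 21 that rose with venetoclax and 7 of the 22 others. The NF-Y box was found in 20 of 43 (46.5%), against 39.7% of all genes, and in 12 of the 21 that rose with venetoclax and 8 of the 22 others. A match is a description of the letters and not a binding site.

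With venetoclax alone, the immunoproteasome subunits did not follow the constitutive ones. PSMB8, PSMB9 and PSMB10 replace PSMB5, PSMB6 and PSMB7 as the catalytic subunits. PSMB8 (chr6:32840717-32844703) had 88.9 and 100.4 CPM with the combination, 80.8 and 83.4 with TAK-981, 49.0 and 75.9 with venetoclax and 72.1 and 75.7 with vehicle. PSMB9 (chr6:32844136-32859585) had 29.5 and 37.3 CPM with the combination, 26.2 and 31.0 with TAK-981, 20.3 and 15.9 with venetoclax and 18.0 and 23.4 with vehicle. For both genes every combination and TAK-981 library was above every venetoclax and vehicle library. PSMB10 (chr16:67930925-67937087) was low, with 44 and 37 counted reads with the combination, 48 and 43 with TAK-981, 7 and 30 with venetoclax and 42 and 46 with vehicle. These were 2.01 and 2.69 CPM, 2.06 and 2.30 CPM, 0.533 and 1.17 CPM, and 1.82 and 1.96 CPM, so the venetoclax libraries were below all others. In hg38, PSMB8 and PSMB9 overlap on opposite strands and PSMB8-AS1 overlaps both. In GENCODE, 4.64% of the exonic bases of PSMB8 are shared with PSMB9, and 4.52% of those of PSMB9 with PSMB8. PSMB8-AS1 shares 20.6% of the exonic bases of PSMB8, on the opposite strand, and 5.66% of those of PSMB9, on the same strand. No source used here says whether counting used strand, and the part of reads from these shared bases was not tested.

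Against venetoclax alone, the combination raised all 3: PSMB9 by 0.89 ± 0.19 (adjusted p = 0.00678), PSMB10 by 1.33 ± 0.36 (adjusted p = 0.0177) and PSMB8 by 0.59 ± 0.18 (adjusted p = 0.0262), on the log2 scale. None of the 3 was called without combination replicate 2, and PSMB8 was not called without combination replicate 1. The size rested on which venetoclax library was kept: PSMB8 was at 0.31 without venetoclax replicate 1 and 0.94 without venetoclax replicate 2, and PSMB10 at 0.97 and 2.09. Against vehicle, PSMB9 rose with the combination, by 0.68 ± 0.19 (adjusted p = 0.0257; not called without combination replicate 2 or vehicle replicate 1); PSMB8 was at 0.36 and PSMB10 at 0.29, and neither was called. With TAK-981 alone the values against vehicle were 0.46 for PSMB9, 0.15 for PSMB8 and 0.20 for PSMB10. With venetoclax alone they were -0.21, -0.23 and -1.04, with adjusted p of 0.469, 0.369 and 0.0687.

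**Figure D3:**
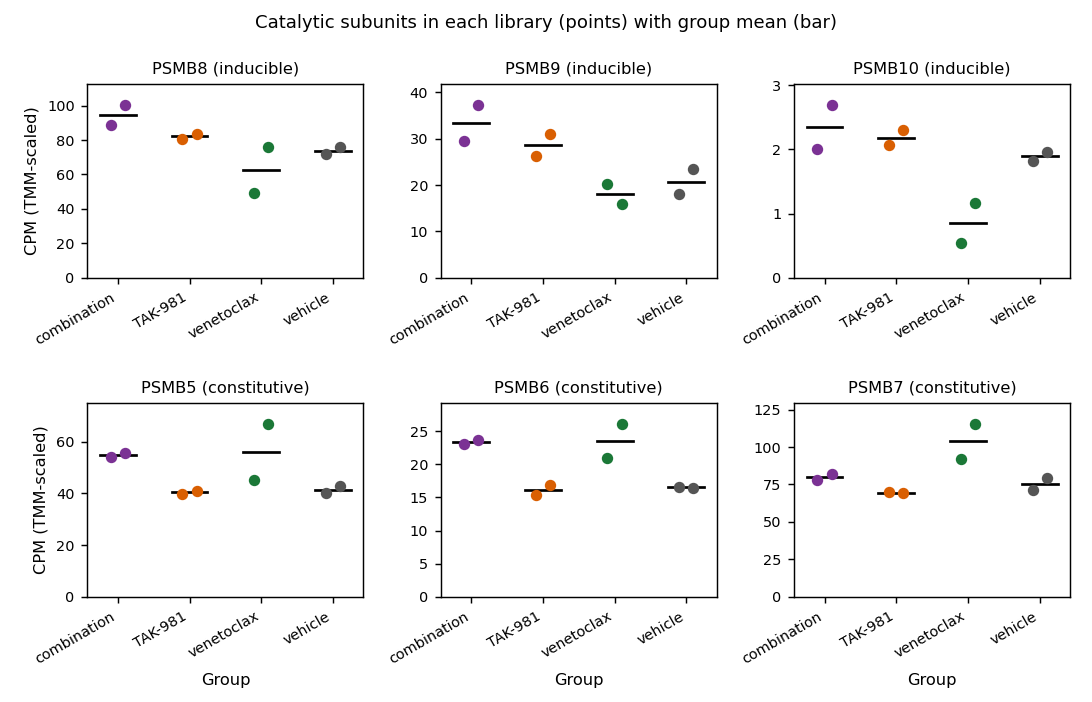
CPM (vertical axes, from 0) of the inducible catalytic subunits PSMB8, PSMB9 and PSMB10 (upper row) and the constitutive PSMB5, PSMB6 and PSMB7 (lower row) in the 4 groups; points are libraries and bars group means. The inducible genes have their lowest mean in venetoclax cells, while the constitutive genes are higher in venetoclax cells than in TAK-981 and vehicle cells.

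Set against their constitutive counterparts within each library, the inducible subunits were lowest in venetoclax cells; these ratios were chosen after the values had been seen. The PSMB8 to PSMB5 ratio of TPM was 1.45 and 1.59 with the combination, 1.79 in both TAK-981 libraries, 0.956 and 1.00 with venetoclax and 1.58 and 1.56 with vehicle. The PSMB9 to PSMB6 ratio was 0.602 and 0.741, 0.802 and 0.865, 0.455 and 0.286, and 0.511 and 0.669 in the same order of groups. The PSMB10 to PSMB7 ratio was 0.0233 and 0.0297, 0.0268 and 0.0302, 0.00526 and 0.0092, and 0.0233 and 0.0225. In all 3 pairs both venetoclax libraries lay below all 6 others. With 2 libraries against 2, the exact two-sided permutation test can give no p below 0.333, which was its value for venetoclax against vehicle in each pair.

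The promoters of the 3 inducible genes are shown since interferon factors are known to act there. The windows are as above: PSMB8 at chr6:32843998-32844297 (minus), PSMB9 at chr6:32853942-32854241 (plus) and PSMB10 at chr16:67936801-67937100 (minus), with the same meaning of capitals.
PSMB8: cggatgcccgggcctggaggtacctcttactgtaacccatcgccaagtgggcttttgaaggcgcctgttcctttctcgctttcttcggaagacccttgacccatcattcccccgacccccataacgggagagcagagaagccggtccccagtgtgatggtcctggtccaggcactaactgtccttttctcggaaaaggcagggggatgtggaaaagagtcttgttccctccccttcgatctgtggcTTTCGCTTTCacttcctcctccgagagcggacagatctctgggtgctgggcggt
PSMB9: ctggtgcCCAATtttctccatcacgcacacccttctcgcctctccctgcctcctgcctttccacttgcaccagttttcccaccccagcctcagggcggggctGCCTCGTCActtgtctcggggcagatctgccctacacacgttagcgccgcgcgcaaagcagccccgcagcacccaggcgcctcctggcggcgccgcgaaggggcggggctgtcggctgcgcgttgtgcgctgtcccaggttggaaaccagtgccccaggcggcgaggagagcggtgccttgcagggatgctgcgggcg
PSMB10: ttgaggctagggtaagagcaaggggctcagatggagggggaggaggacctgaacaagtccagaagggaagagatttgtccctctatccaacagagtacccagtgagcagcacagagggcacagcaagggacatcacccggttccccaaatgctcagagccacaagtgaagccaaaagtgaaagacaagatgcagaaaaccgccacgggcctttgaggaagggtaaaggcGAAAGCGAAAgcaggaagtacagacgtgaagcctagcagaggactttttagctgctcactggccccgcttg
The interferon element core lies across the RefSeq start of the PSMB8 window shown, as TTTCGCTTTC, and just before the start of PSMB10, as GAAAGCGAAA. The PSMB9 window has none, and holds CCAAT and GCCTCGTCA, the antioxidant element core read on the other strand. The interferon element core was found in 7 of 43 members (16.3%), against 4.38% of all genes: PSMA4, PSMB4, PSMB8, PSMB10, PSME1, PSME2 and PSMG4. It stood in 1 of the 21 that rose with venetoclax and 6 of the 22 others. PSMB8 has a further RefSeq window, at chr6:32844630-32844929, without any of the 3 motifs. That window, and not the one shown, holds the 5′ end of PSMB8 as deposited, chr6:32844703. The PSMB9 window does not hold the deposited 5′ end of PSMB9, chr6:32844136, and the PSMB10 window holds that of PSMB10, chr16:67937087.

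**Figure D4:**
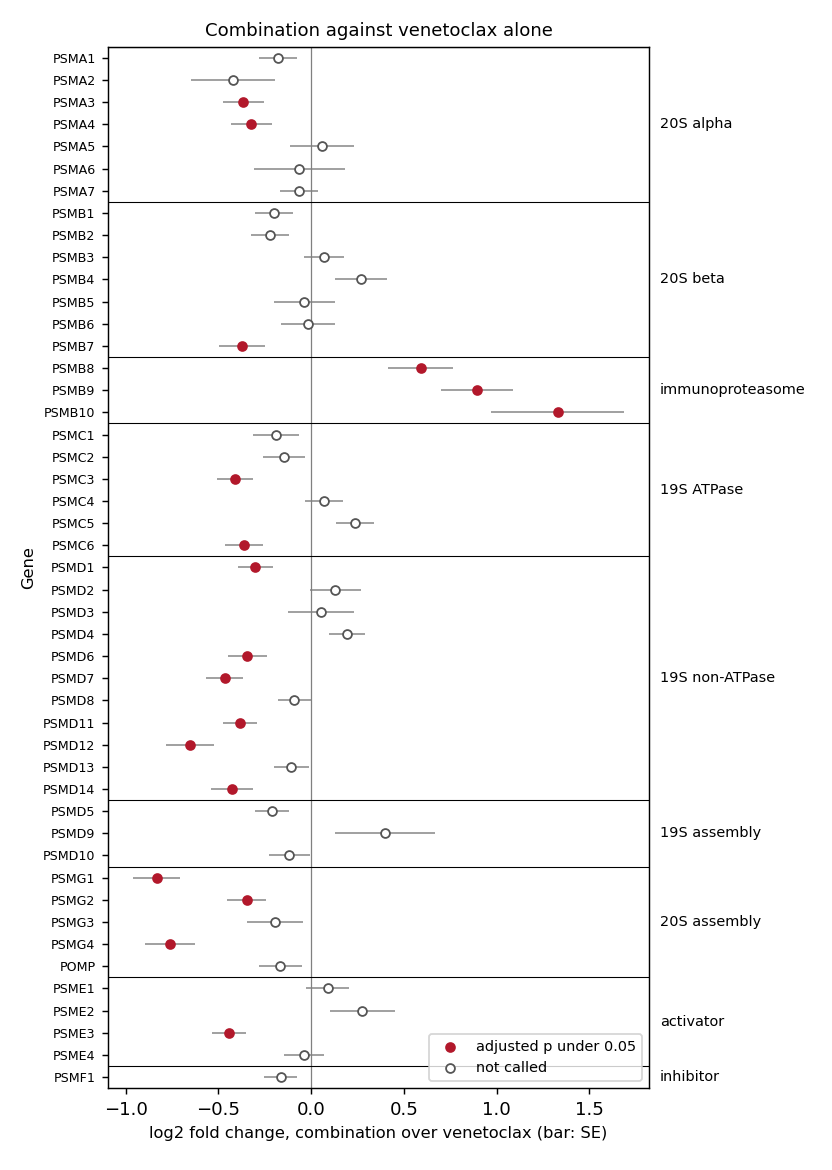
Log2 fold change of the combination over venetoclax (horizontal axis, bars SE) for the 47 tested genes by class (vertical axis); filled points have an adjusted p under 0.05. The 3 immunoproteasome genes are filled right of 0, between 0.59 and 1.33, and the 15 filled points left of 0 are in the cap, the core, the core chaperones and PSME3.

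Genes that act with the immunoproteasome were read from 9 inducers and antigen presentation partners. Against vehicle, 3 of 9 rose with the combination, none passed the edgeR test with TAK-981, and 1 fell with venetoclax. Over all genes 12.8% rose with the combination, 12.2% were called with TAK-981 and 9.44% fell with venetoclax, so the last count was near the share of all genes. TAP1, a peptide transporter whose gene lies beside PSMB9, had 148 and 205 CPM with the combination, 132 and 135 with TAK-981, 46.6 and 77.7 with venetoclax and 91.4 and 90.1 with vehicle. The 4 groups did not overlap, in the order combination, TAK-981, vehicle, venetoclax. Against vehicle TAP1 rose by 0.96 with the combination, the transcription factor IRF1 by 0.51 and the peptide-loading chaperone TAPBP by 0.43 on the log2 scale; none of these 3 calls held without combination replicate 2 or without either vehicle library, and IRF1 was at 0.28 without combination replicate 2. With TAK-981, TAP1 at 0.56 and B2M, the MHC class I light chain, at 0.39 had unadjusted p of 0.0294 and 0.0209 (adjusted p = 0.134 and 0.108). NLRC5, a transactivator of MHC class I genes, fell by 1.00 with venetoclax, with 69.8 and 83.6 CPM against 172 and 135 CPM in vehicle libraries, without overlap. Against venetoclax, the combination raised 6 of 9, TAP1 by 1.49, NLRC5 by 0.97 and IRF1 by 0.63 among them; TAP1 and NLRC5 were called in every fit that left out 1 library, and IRF1 was at 0.39 and not called without combination replicate 2. Against TAK-981 the combination raised 1, TAPBP, by 0.43. Over all genes 17.6% rose with the combination against venetoclax and 2.76% against TAK-981.

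Proteins that bind the proteasome gave a further view of the cap. Of 18 such genes, 8 rose and 0 fell with venetoclax against vehicle, 2 rose and 1 fell with the combination, and 1 rose with TAK-981. Over all genes 11.4% rose and 9.44% fell with venetoclax, 12.8% rose and 15.1% fell with the combination and 5.98% rose with TAK-981, so the counts with the combination and TAK-981 were at or below the shares of all genes. The cap-bound deubiquitinase UCHL5 had 103 and 96.7 CPM with the combination, 102 and 101 with TAK-981, 283 and 186 with venetoclax and 125 and 133 with vehicle, so only venetoclax libraries were high. Its log2 fold change was 0.86 with venetoclax against vehicle and -1.23 with the combination against venetoclax. The first was 0.53 without venetoclax replicate 1, and was not called without either vehicle library. The other deubiquitinase, USP14, rose by 0.59 with venetoclax, as did the proteasome-interacting protein PITHD1, by 0.59, and SEM1, a small cap subunit, by 1.05. SEM1 had 94.4 and 53.9 CPM in the venetoclax libraries, and was at 0.60 without venetoclax replicate 1; its call was lost without either vehicle library. Against venetoclax, the combination lowered 9 of 18 and raised 0, with USP14 at -0.59, the ubiquitin shuttle RAD23B at -0.67 and the shuttle UBQLN1 at -0.37. Over all genes 22% fell and 17.6% rose in that comparison. ADRM1, the ubiquitin receptor that anchors UCHL5, had 67.8 and 65.5 CPM with the combination, 57.8 and 63.2 with TAK-981, 51.9 and 59.1 with venetoclax and 42.8 and 46.4 with vehicle, and rose by 0.58 with the combination and 0.44 with TAK-981. Against TAK-981, the combination gave 0 calls among the 18, where 8.8% of all genes were called.

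The 14 genes of the NFE2L1 pathway gave calls in both directions with venetoclax and with the combination. With venetoclax 3 rose and 2 fell against vehicle, where 11.4% of all genes rose and 9.44% fell: DDI2, the protease that activates NFE2L1, rose by 0.37, NFE2L2 by 0.42 and the stress gene HERPUD1 by 0.43, while MAFF, a small partner of these factors, fell by 1.05 and the repressor BACH1 by 0.38. With the combination 3 rose and 4 fell, where 12.8% of all genes rose and 15.1% fell: MAFF fell by 1.13, NGLY1, the deglycosylase that NFE2L1 needs, by 0.64, FBXW7, a ubiquitin ligase adaptor, by 0.53 and BACH1 by 0.32, while NFE2L2 rose by 0.43. The largest rise of the list with the combination was that of VCP, the ATPase that extracts ubiquitinated proteins, at 0.78; it was named after its values were seen. VCP had 459 and 487 CPM with the combination, 322 and 311 with TAK-981, 275 and 448 with venetoclax and 279 and 270 with vehicle, so the venetoclax libraries stood far apart, and it was not called when any 1 of the combination or vehicle libraries was left out. With TAK-981 the 1 call was NGLY1, which fell by 0.55, where 6.18% of all genes fell. NFE2L1 itself had 136 and 139 CPM with the combination, 126 and 124 with TAK-981, 147 and 124 with venetoclax and 109.9 and 109 with vehicle. Every treated library was above both vehicle libraries, and the test was passed with the combination only, at 0.33. That call was lost with no filter on low counts and when any 1 library other than a venetoclax one was left out. Against venetoclax, the combination lowered 4 of 14 and raised 1, where 22% of all genes fell and 17.6% rose. NGLY1 was at -0.55, DDI2 at -0.48, FBXW7 at -0.53 (-0.35 without venetoclax replicate 1) and SYVN1, the ligase that turns NFE2L1 over, at 0.53. Against TAK-981 the combination lowered 2, MAFF by 1.10 and BACH1 by 0.44, where 6.03% of all genes fell.

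Of 6 ubiquitin and ubiquitin-activating enzyme genes, none passed the edgeR test with venetoclax or TAK-981 against vehicle, and 1 fell with the combination, the activating enzyme UBA6, by 0.47. Over all genes 20.8% were called with venetoclax, 12.2% were called with TAK-981 and 15.1% fell with the combination. The count with the combination was thus near the share of all genes. Against venetoclax the combination raised UBB, a ubiquitin gene, by 0.57 and UBA1, the main activating enzyme, by 0.43, and lowered UBA6 by 0.52. Over all genes 17.6% rose and 22% fell in that comparison. UBA1 was at 0.21 without venetoclax replicate 1 and 0.67 without venetoclax replicate 2. Across these 4 lists, 9 of 56 calls held in every fit that left out 1 library, and none changed sign. Against vehicle these were NGLY1 with the combination and NLRC5 with venetoclax. For the combination against venetoclax they were UCHL5, USP14, RAD23B, DDI2, NGLY1, NLRC5 and TAP1.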

How the data were processed

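RNA-seq libraries of KG1a cells were made in 4 groups of 2. The deposited table holds raw read counts per gene with each gene's hg38 position and length, and per the submitters' processing notes it was made with Trimmomatic, STAR 2.6.0 and HTSeq 0.11.1 on hg38; edgeR is also named there. Per the labels' protocols the libraries were made with a SMART-Seq v4 kit, which primes on poly(A) tails, while the series' design text names ribosomal depletion, so the library method cannot be settled here. Strand setting and treatment of ambiguous reads: not given in the sources used here.

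From the counts, edgeR 4.0.16 in R 4.3.3 fitted 1 mean per group over all 8 libraries, with 4 residual degrees of freedom, after TMM scaling and the package's filter on low counts (12843 genes). Robust quasi-likelihood F tests were two-sided, with Benjamini-Hochberg adjustment over all genes tested and a threshold of 0.05. An SE is the log2 fold change over the root of F, and is approximate. CPM used TMM-scaled totals, and TPM used the deposited gene lengths. The interaction compared the effect of TAK-981 with and without venetoclax. The procedure was also run on simulated data with changes in the TAK-981 group only, which does not measure its error rates in these data. Values in every library were given for the immunoproteasome, activator and inhibitor genes, POMP, and in each comparison up to 4 called members of smallest p; other called members were named by fold change. Alternatives were other scaling, low-count filters, DESeq2 1.42.0, limma 3.58.1 voom with quality weights, a replicate block, the compared libraries alone and each library left out, and, added after seeing the data, both venetoclax libraries left out. Promoter windows came from RefSeq (GRCh38.p14) and gene overlaps from GENCODE 29. The members and gene lists were chosen with earlier results of these data known. 1 listed gene is not reported here.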

Additional observations from a re-analysis of the deposited data

How the results depend on the processing

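No call reversed under any alternative. Of 71 calls of single members, 66 held with DESeq2 size factors, 66 with no filter on low counts, 69 with a mean of at least 1 CPM, 69 with DESeq2, 51 with limma-voom and 38 with only the compared libraries in the fit; the rest kept their sign and missed the threshold. For venetoclax against vehicle the count of 25 became 6 with only the compared libraries, 14 with limma-voom, and 6 to 36 with 1 library left out. For the combination against vehicle, 19 became 30, 29 and 4 to 31 in the same order, and 32 without both venetoclax libraries. For the combination against TAK-981, 9 became 23, 23 and 0 to 23, and 23 without both venetoclax libraries. For the combination against venetoclax, 18 became 4, 9 and 4 to 26. For TAK-981 against vehicle, 0 became 4, 4 and 0 to 4, with 1 (PSMB9) under no filter and 4 without both venetoclax libraries. For the interaction, 0 became 3 with no filter and 1 with DESeq2, and 0 to 17 with 1 library left out. Fits on the compared libraries have fewer residual degrees of freedom, and fits without a library assume that the lone one varies like the other groups; the cause of the other shifts was not tested. PSMB10, not called with venetoclax against vehicle, was called lower with no filter, with the replicate block and without venetoclax replicate 2.

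Same-numbered libraries deviated together in some pairs of groups and not in others (Pearson correlation of replicate differences over 9858 genes from -0.0429 to 0.384). Such correlations cannot show whether same-numbered libraries were handled together, and the main fit did not pair them. A replicate block gave counts of 26 for venetoclax, 19 for the combination and 0 for TAK-981 against vehicle, 10 against TAK-981, 18 against venetoclax and 0 for the interaction, and kept all 71 calls.

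With 2 libraries a group, a change that missed the threshold was not detectable here, which does not show that it is absent. PSMB10 rests on 7 to 48 reads a library.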
